A study of Mus musculus with 6 samples.

Results

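Enzymes that make, desaturate and lengthen fatty acids are described here across 6 messenger RNA libraries of mouse embryonic fibroblasts. Their genes were taken by symbol from the deposited table, and all 10 of 10 were found among its 21853 genes: Acly, Acaca, Fasn, Scd1, Scd2, Fads1, Fads2, Fads3, Elovl5 and Elovl6. All 10 were also among the 10870 genes kept for testing, whose level averaged 1 FPKM or more across the libraries. The fibroblasts, connective tissue cells grown from embryos, came from the C57BL/6J strain with a labelled age of 12 days. In both groups xCT was knocked out, the subunit of the cystine/glutamate antiporter encoded by Slc7a11, whose loss exposes cells to ferroptosis, a death driven by lipid peroxidation. The control group (3 libraries) was given water and the RCE group (3 libraries) red clover extract. The sources used here give no dose, exposure time or medium. The labels do not say that replicates were separate cultures, and p-values therefore reflect library-to-library spread that may be technical.

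Cells build saturated fat from citrate. Acly splits citrate into acetyl-CoA, Acaca turns that into malonyl-CoA, and Fasn assembles palmitate. On the monounsaturated route Elovl6 lengthens palmitate to stearate, and the stearoyl-CoA desaturases Scd1 and Scd2 place a double bond to give palmitoleate and oleate. The polyunsaturated route starts from essential fatty acids of the diet or medium: Fads2 and Fads1 add double bonds and Elovl5 lengthens the chain between them. Fads3 is a homologue of both with a different substrate range, and was set apart here. Polyunsaturated chains in membranes are the main substrate of lipid peroxidation in ferroptosis, while monounsaturated chains are hard to oxidise.

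The 10 genes lie on 4 mouse chromosomes (mm10, GENCODE M21), all of them protein-coding. Fads3 (19:10041569-10060110), Fads2 (19:10062765-10101746) and Fads1 (19:10182888-10196877) form a cluster of 155 kb on chromosome 19. The same chromosome holds Scd2 (19:44293674-44306864) and Scd1 (19:44394455-44407879), within 114 kb of each other. Chromosome 11 holds Acaca (84129672 to 84401651), Acly (100476353 to 100528000) and Fasn (120805846 to 120824547). Elovl6 is on chromosome 3 (129532355 to 129638495) and Elovl5 on chromosome 9 (77917364 to 77984519). RefSeq promoters (GRCm38.p6, the mm10 build) matched 7 of the 10 genes, all but Scd1, Scd2 and Fads1.

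Promoters are printed for Acly, which was called lower, for Fasn, which acts later in the same pathway and was not called, and for Elovl5, the elongase of the polyunsaturated route. Each is the 250 bases before the RefSeq start site, 5′ to 3′ on the gene's strand, with capitals for matches on either strand to CCAAT (the NF-Y box), GGGCGG (the GC box), CACGTG (an E-box) and CACCCCAC (the core of a sterol regulatory element).
Acly (chr11:100528001-100528250, minus strand): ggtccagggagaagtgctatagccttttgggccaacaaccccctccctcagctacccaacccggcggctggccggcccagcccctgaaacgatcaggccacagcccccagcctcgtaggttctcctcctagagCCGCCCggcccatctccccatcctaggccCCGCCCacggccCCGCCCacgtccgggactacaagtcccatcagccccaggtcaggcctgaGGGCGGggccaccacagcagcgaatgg
Fasn (chr11:120824548-120824797, minus strand): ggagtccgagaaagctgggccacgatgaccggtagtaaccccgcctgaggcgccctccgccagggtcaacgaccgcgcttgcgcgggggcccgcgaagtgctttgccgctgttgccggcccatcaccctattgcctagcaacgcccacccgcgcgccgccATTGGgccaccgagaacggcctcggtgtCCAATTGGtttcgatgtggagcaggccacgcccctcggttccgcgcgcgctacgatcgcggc
Elovl5 (chr9:77917115-77917364, plus strand): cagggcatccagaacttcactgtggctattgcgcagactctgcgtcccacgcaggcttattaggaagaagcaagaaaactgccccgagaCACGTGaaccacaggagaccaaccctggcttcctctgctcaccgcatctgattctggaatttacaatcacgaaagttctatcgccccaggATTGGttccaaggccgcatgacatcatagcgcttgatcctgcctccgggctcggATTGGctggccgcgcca
The Acly window held 4 GC boxes and 0 CCAAT boxes, and the Fasn window held 3 CCAAT boxes, of which a pair overlap, and 0 GC boxes. In the Elovl5 window 2 CCAAT boxes and 1 E-box were found. None of the 4 motifs was in the window of Elovl6. The Acaca window, at a RefSeq start inside the gene as annotated by GENCODE, is not that of the annotated gene start and is not described. Fads3 had 2 CCAAT and 2 GC boxes, and Fads2 had 1 GC box. Of 32851 promoters of this length, 33.8% held CCAAT, 32.7% GGGCGG, 6.02% CACGTG and 2.58% CACCCCAC. These matches describe the letters in the windows only.

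Levels are in FPKM, fragments scaled to transcript length and library depth, so they can be compared between genes. Steps between low values put the depth at 45650000 to 59000000 fragments per library. At that depth roughly 1320 (Elovl6) to 22920 (Fads3) fragments lay behind each value of the 10 genes, taking the longest transcript. On that length counting error alone was at most 2.75% of a value, and a shorter transcript would give more. Slc7a11 stood at 0.007 to 0.037 FPKM in all 6 libraries. The 12 fibroblast markers were all above the filter and summed to 6560 to 6840 FPKM in control and 5860 to 6160 FPKM with RCE. With RCE 2 of them, Pdgfrb and Dcn, were called lower, or 8 of 12 with replicate number as a block in the fit. Of all genes 6.77% were called lower, or 15.9% with the block. Without the block the call of Pdgfrb ended on leaving out any replicate 2 or 3 library (adjusted p = 0.057 to 0.0876) and that of Dcn on leaving out any of the 6 (0.0522 to 0.133), both by limma. The part of this shift in the changes of the 10 genes was not tested.

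Fads3 was the most abundant of the 10 in control cells, at 109 FPKM, followed by Scd2 (71.8), Acly (62.7), Scd1 (39.2), Fads1 (33.9), Fasn (23.9), Elovl5 (21.02), Fads2 (14.1), Acaca (6.99) and Elovl6 (4.56 FPKM). No neighbours in this order overlapped among the control libraries. With RCE Fads3 stayed at the top at 108 FPKM, and 3 pairs of neighbours changed places and overlapped: Acly (50.7) with Scd2 (48.5), Fads1 (36.7) with Scd1 (35.7), and Elovl5 (23.5) with Fasn (22.5 FPKM). Against all tested genes, the mean level ran from the 29.2th percentile for Elovl6 to the 95.6th for Fads3.

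**Figure D1:**
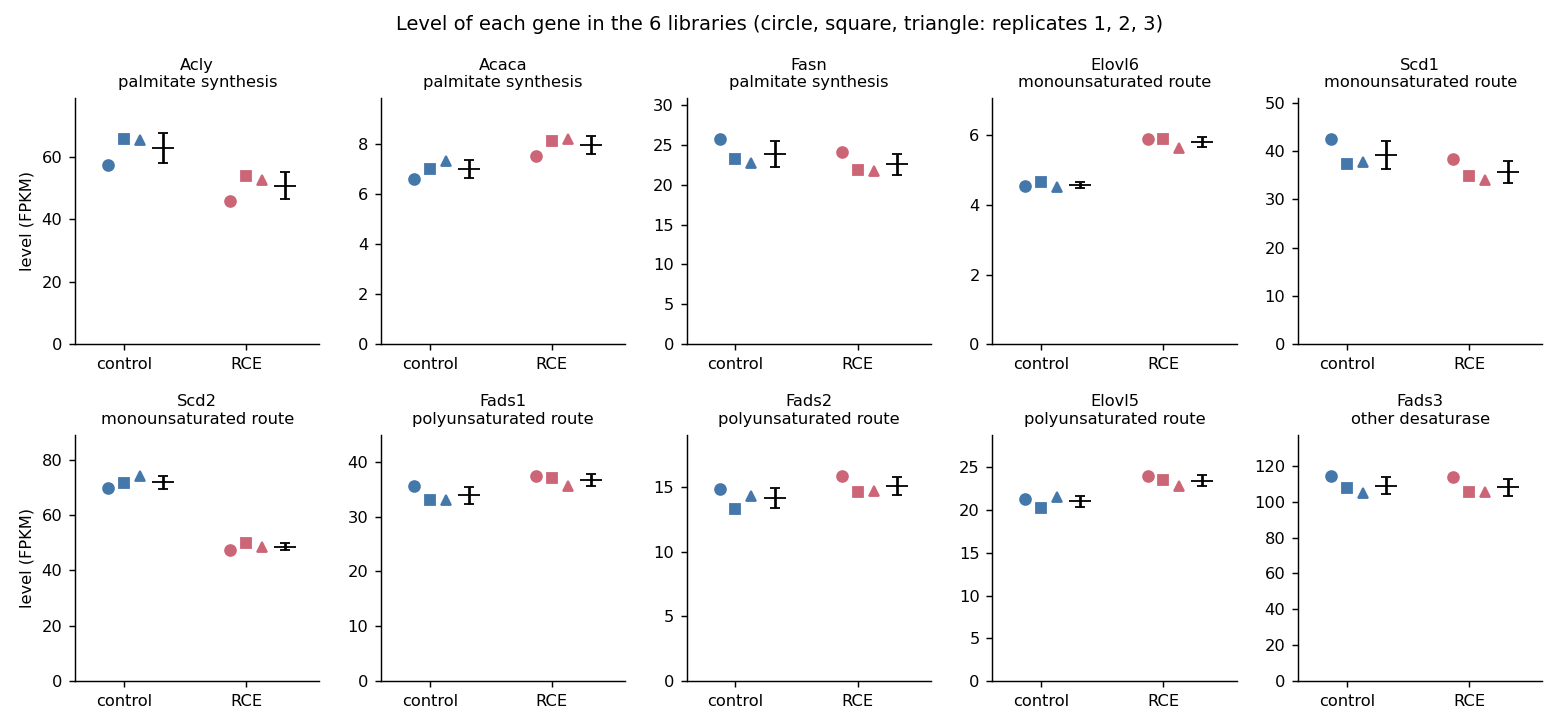
Level in FPKM (vertical axis, from 0) of each gene in the 3 control and 3 RCE libraries, with the mean and SD as a black bar. Scd2 and Acly sit lower and Elovl6, Acaca and Elovl5 higher in all RCE libraries, while the groups overlap for the other 5 genes.

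With RCE, 3 of the 10 genes passed the threshold: Scd2 and Acly fell and Elovl6 rose. The fit was limma across all tested genes on log2(FPKM + 1), genes were called at a Benjamini-Hochberg adjusted p under 0.05, and changes below are RCE minus control on that scale. Among all genes 17.6% were called higher and 6.77% lower, against 1 and 2 of these 10. The median change was 0.04 over the 10 genes and 0.08 over all genes tested. The 3 values of each group did not overlap for 3 of the 10 genes that were higher with RCE and 2 that were lower, where 31.2% and 10.9% of all genes showed the same. The balance of calls moved with scaling: 72.2% of all calls were higher in the fit as described but 45.8% after median-of-ratios scaling, where the median of all genes was 0.0. Under that scaling 8.4% of genes were called higher and 9.95% lower, and Scd2, Acly and Elovl6 remained the 3 called among the 10.

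On the monounsaturated route the 3 genes did not move together. Scd2, the more abundant stearoyl-CoA desaturase in these fibroblasts, had 69.7, 71.4 and 74.2 FPKM in the control libraries, given throughout in the order of replicates 1, 2 and 3, against 47.4, 49.7 and 48.5 FPKM with RCE. Every RCE library was below every control library by a gap far wider than the spread within either group. Its mean went from 71.8 ± 2.25 to 48.5 ± 1.15 FPKM (SD, n = 3), 0.676 of the control level (log2 change -0.55, SE 0.05, limma adjusted p = 8.71e-04). Under all 18 alternatives Scd2 was called lower, with changes from -0.64 to -0.53.

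Scd1, the better known isoform of liver and fat, had 42.5, 37.4 and 37.7 FPKM in control and 38.4, 34.9 and 34.0 FPKM with RCE. The groups overlapped, with replicate 1 the highest library of both, and each RCE library was below the control library of the same number. The change was -0.13 (95% interval -0.30 to 0.04, limma adjusted p = 0.244), and with replicate number as a block it passed (95% interval -0.19 to -0.07, adjusted p = 0.00274).

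Scd1 made up 37.9, 34.4 and 33.7% of the summed Scd1 and Scd2 level in control libraries and 44.7, 41.2 and 41.2% in RCE libraries. All 3 RCE shares were above all control shares, by 7.09 percentage points in the mean (2-sided exact permutation test, p = 0.1, the smallest that 3 against 3 can give). By number the share was higher in 3 of 3 pairs (paired exact permutation test, p = 0.25, again the smallest possible). Of the 50-base stretches of the longest Scd1 transcript 4.66% also occur in another gene's transcripts, and 4.01% of those of Scd2. Scd1 and Scd2 share some of these stretches with each other, and both share some with Scd3 and Scd4. Scd3 and Scd4 themselves stood at 0 to 0.086 FPKM. The part of reads shared between Scd1 and Scd2 in the Scd1 share was not tested.

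Elovl6, the elongase upstream of both desaturases, was low and tightly grouped, at 4.53, 4.65 and 4.51 FPKM in control and 5.88, 5.89 and 5.64 FPKM with RCE. No library overlapped the other group. The mean rose from 4.56 ± 0.0777 to 5.80 ± 0.143 FPKM (SD, n = 3), 1.27 times control (log2 change 0.29, SE 0.04, limma adjusted p = 0.00436), and the call held under all 18 alternatives (0.20 to 0.34). An exon of it overlaps Gm35986 on the opposite strand, and 4.59% of its 50-base stretches recur in other transcripts.

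The polyunsaturated route had no gene past the threshold. All 3 of its members were higher in each of the 3 pairs of same-numbered libraries. The share of all genes that did so was not counted. The median change of all genes tested was itself 0.08, and 46.6% of them were called higher with replicate number as a block. Fads2, the delta-6 desaturase that starts the route, had 14.8, 13.3 and 14.3 FPKM in control and 15.9, 14.6 and 14.7 FPKM with RCE. Control replicate 1 lay within the RCE values (log2 change 0.09, 95% interval -0.05 to 0.22, limma adjusted p = 0.32). Fads1, the delta-5 desaturase, had 35.7, 33.0 and 33.1 FPKM in control and 37.5, 37.1 and 35.5 FPKM with RCE, where RCE replicate 3 lay just within the control range (0.11, 95% interval -0.01 to 0.23, adjusted p = 0.157). The ratio of Fads1 to Fads2 was 2.40 ± 0.0835 in control and 2.44 ± 0.0901 with RCE (SD, n = 3).

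Elovl5, which lengthens the product of Fads2, had 21.3, 20.3 and 21.5 FPKM in control and 24.0, 23.6 and 22.8 FPKM with RCE. These groups did not overlap, but the change missed the threshold (0.15, 95% interval 0.04 to 0.26, limma adjusted p = 0.0539). With the replicate block Elovl5 (adjusted p = 0.00353), Fads1 (0.00878) and Fads2 (0.0328) were all called higher. With the block and a correction for transcript GC content together, none of the 3 was (Elovl5 0.06, adjusted p = 0.146, Fads1 0.035, adjusted p = 0.313, and Fads2 0.022, adjusted p = 0.579).

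Fads3 had 115, 107 and 105 FPKM in control and 114, 105 and 105 FPKM with RCE. Both groups spanned nearly the same range, with replicate 1 highest in each (log2 change -0.01, 95% interval -0.15 to 0.12, limma adjusted p = 0.906). It was lower only with the block and GC correction together (-0.084, adjusted p = 0.0209), and the sign of the change turned without control replicate 1 (0.024), RCE replicate 2 (0.0061) or RCE replicate 3 (0.0057).

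Set against each other, the desaturases of the monounsaturated and polyunsaturated routes lay further apart in every control library than in any RCE library. The summed level of Scd1 and Scd2 was 112, 109 and 112 FPKM in control and 85.8, 84.6 and 82.5 FPKM with RCE, while that of Fads1 and Fads2 was 50.5, 46.3 and 47.4 against 53.4, 51.7 and 50.2 FPKM. A single scaling factor per library cannot alter the ratio of these sums, though quantile normalization or GC correction could. That ratio was 2.22, 2.35 and 2.36 in control and 1.61, 1.63 and 1.64 with RCE, or 2.31 ± 0.0769 and 1.63 ± 0.019 (SD, n = 3). The ratio of Scd2 alone to Fads1 plus Fads2 was 0.627 of control with RCE, and that of Scd1 alone 0.847. For the elongases the order was the opposite, with a ratio of Elovl6 to Elovl5 of 0.217 ± 0.0108 in control and 0.247 ± 0.00265 with RCE. Over 3 genes each, the mean change was -0.13 for the monounsaturated and 0.12 for the polyunsaturated members, a difference of -0.25. The median of all genes tested was 0.08. With median-of-ratios scaling Elovl5, Fads1 and Fads2 were at 0.068, 0.027 and 0.0053, and Scd2, Scd1 and Elovl6 at -0.64, -0.21 and 0.22. The monounsaturated mean joins Scd2 (-0.55), Scd1 (-0.13) and Elovl6 (0.29). Over the 18 alternatives the difference ran from -0.26 to -0.23. Filters, the block and the variance trend cannot change it, and a single factor per library nearly cancels. The narrow range is therefore no measure of its certainty. These ratios and the difference between the routes are descriptions, and the difference was not tested.

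**Figure D2:**
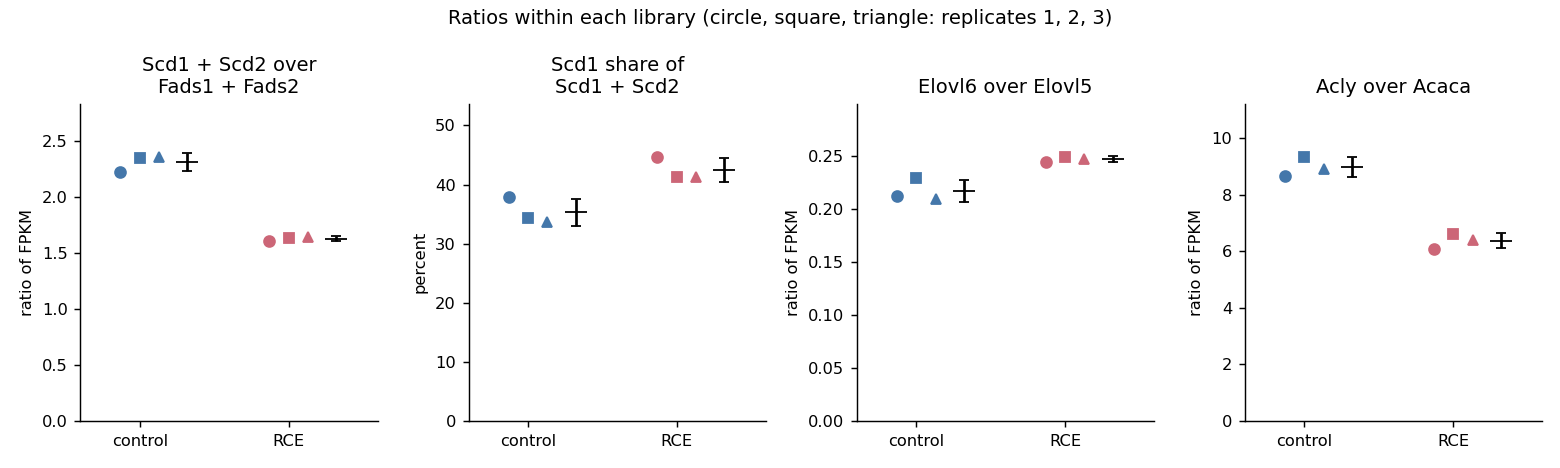
Ratios computed within each library (vertical axes from 0, ratio of FPKM or percent) for the 3 control and 3 RCE libraries, with the mean and SD as a black bar. The desaturase ratio lies at 2.22 to 2.36 in control and 1.61 to 1.64 with RCE, and the other 3 measures also separate the groups.

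Palmitate synthesis, which feeds the monounsaturated route, was split as well. Acly had 57.3, 65.6 and 65.4 FPKM in control and 45.9, 53.8 and 52.5 FPKM with RCE. Replicate 1 was lowest in both groups, and all RCE libraries were below all control libraries. The mean fell from 62.7 ± 4.75 to 50.7 ± 4.25 FPKM (SD, n = 3), 0.808 of control (log2 change -0.30, SE 0.08, limma adjusted p = 0.0439). This call was close to the threshold and ended in 8 of 18 alternatives: without the filter (adjusted p = 0.0599), with a filter at 5 FPKM (0.0584), with quantile normalization (0.0519), and on leaving out control replicate 2 (0.141), control replicate 3 (0.141), RCE replicate 1 (0.0669), RCE replicate 2 (0.0844) or RCE replicate 3 (0.0942). With the replicate block its adjusted p was 3.51e-05.

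Acaca, the rate-limiting acetyl-CoA carboxylase, had 6.61, 7.02 and 7.34 FPKM in control and 7.54, 8.13 and 8.20 FPKM with RCE. The groups did not overlap and lay in the opposite order to Acly, but the change missed the threshold (0.16, 95% interval 0.04 to 0.29, limma adjusted p = 0.0705). It passed with the block (adjusted p = 0.0021), with the block and GC correction (0.0397) and without RCE replicate 1 (0.20, adjusted p = 0.0462). Of its 50-base stretches 52.6% also occur in Gm5182, a processed pseudogene, so its level is uncertain to the extent that reads were shared with that copy.

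Fasn had 25.7, 23.2 and 22.7 FPKM in control and 24.0, 21.9 and 21.7 FPKM with RCE. Replicate 1 was again the highest of each group and the groups overlapped (-0.08, 95% interval -0.24 to 0.08, limma adjusted p = 0.433), while with the block it was called lower (adjusted p = 0.0244). The ratio of Acly to Acaca was 8.97 ± 0.35 in control and 6.37 ± 0.267 with RCE, without overlap (SD, n = 3). That of Fasn to Acaca was 3.43 ± 0.412 and 2.84 ± 0.303 (SD, n = 3), with overlap between the groups.

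With the replicate block 5 of the 10 genes were called higher (Acaca, Elovl5, Elovl6, Fads1 and Fads2) and 4 lower (Acly, Fasn, Scd1 and Scd2), where 46.6% and 15.9% of all genes were. With the block and GC correction 2 were higher (Acaca and Elovl6) and 5 lower (Acly, Fasn, Scd1, Scd2 and Fads3), against 25.3% and 27.2% of all genes.

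**Figure D3:**
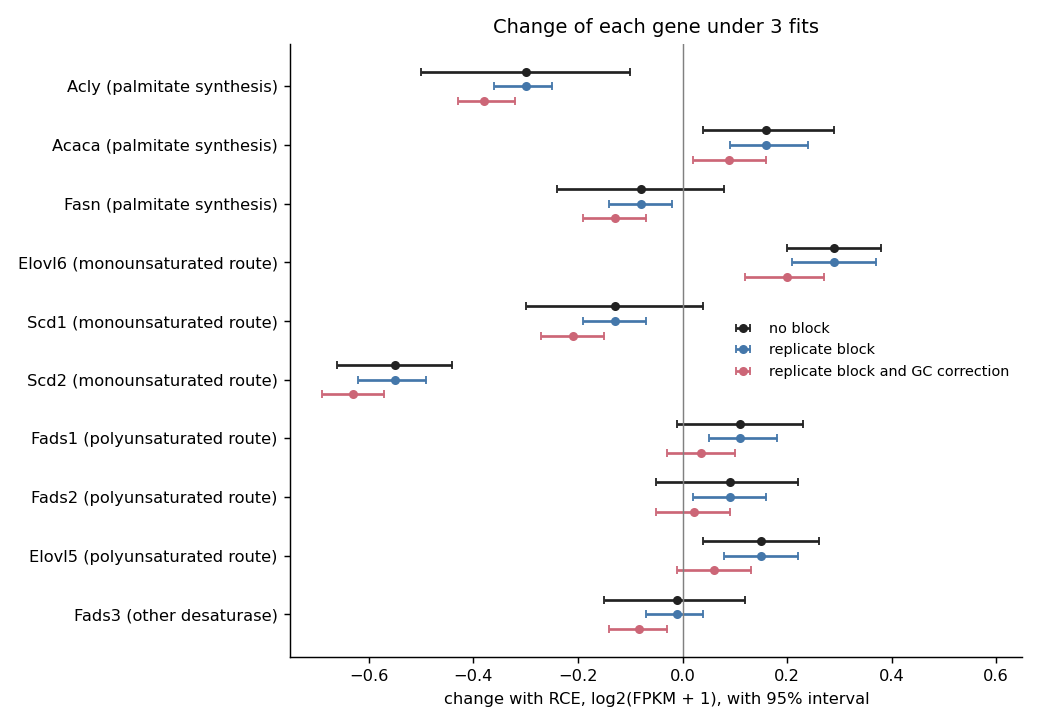
Change of each gene with RCE on the log2(FPKM + 1) scale (horizontal axis) with its 95% interval, in the fit without a block, with the replicate block, and with block and GC correction. The intervals of Scd2, Acly, Elovl6 and Acaca stay clear of 0 in all 3 fits, although Acaca was not called without the block. Those of Fads1, Fads2 and Elovl5 include 0 in the fit with GC correction, and those of Fads1 and Fads2 also do without the block.

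Other genes around palmitate supply, not all of them enzymes, numbered 11, of which 8 were tested, 2 rose and 0 fell. Of all genes 17.6% were called higher and 6.77% lower. The median change of the list was 0.20, or 0.12 with median-of-ratios scaling. Mid1ip1, a partner that promotes polymerisation of acetyl-CoA carboxylase, went from 26.7 to 27.4 FPKM in control to 31.1 to 32.2 FPKM with RCE (0.22, limma adjusted p = 0.0118). Oxsm, the mitochondrial ketoacyl synthase, was called higher too (0.20, adjusted p = 0.0247). Median-of-ratios scaling ended both calls (adjusted p = 0.0921 and 0.0674). So did leaving out control replicate 2 (0.0561 and 0.0832), control replicate 3 (0.051 and 0.0569), RCE replicate 2 (0.0543 and 0.101) or RCE replicate 3 (0.0526 and 0.0915), and that of Oxsm also ended without control replicate 1 (0.0604), with quantile normalization (0.20) and with GC correction (0.0748). Mecr, the partner reductase of Oxsm in mitochondria, and malic enzyme Me1, a source of NADPH, were at 0.25 (adjusted p = 0.0552, blocked 2.24e-04) and 0.19 (0.0918, blocked 3.53e-04), and both passed without RCE replicate 1 (0.0328 and 0.0489). Oxsm and Mecr belong to the separate fatty acid synthesis of mitochondria, so the list's counts do not describe palmitate supply alone. The block gave 6 higher and 1 lower in this list, where it called 46.6% and 15.9% of all genes.

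Among 11 further genes of the elongation cycle, 8 were tested, 1 rose and 0 fell (median 0.06, and 3 higher and 1 lower with the block). Shares of all genes called higher and lower were 17.6% and 6.77%, or 46.6% and 15.9% with the block. The gene that rose was Elovl4, an elongase of very long chains, from 3.61, 3.92 and 4.22 FPKM to 4.50, 5.01 and 5.63 FPKM (0.30, limma adjusted p = 0.0434). Its call ended without the filter (adjusted p = 0.0694), under quantile (0.142) or median-of-ratios scaling (0.0877), under GC correction (0.0559), and on leaving out control replicate 1 (0.0952), 2 (0.119) or 3 (0.0732) or RCE replicate 2 (0.126) or 3 (0.112). The dehydratases Hacd2 and Hacd3 were at 0.14 (adjusted p = 0.163, blocked 0.0299) and 0.13 (0.449, blocked 0.00719), and the ketoacyl reductase Hsd17b12 at -0.09 (0.428, blocked 0.00903). The list's median was -0.02 with median-of-ratios scaling.

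Of 11 other genes of desaturation 7 were tested, 1 rose and 0 fell (median 0.00, or -0.08 with median-of-ratios scaling, and 1 higher and 2 lower with the block). Across all genes 17.6% were called higher and 6.77% lower, or 46.6% and 15.9% with the block. Cyb5a, the cytochrome b5 that hands electrons to stearoyl-CoA desaturase, had 38.3, 41.4 and 40.1 FPKM in control and 45.4, 48.5 and 48.9 FPKM with RCE (0.25, limma adjusted p = 0.019). Median-of-ratios scaling ended that call (adjusted p = 0.0535), as did omitting control replicate 3 (0.0682), RCE replicate 2 (0.0889) or RCE replicate 3 (0.0773). Cyb5r3, the reductase that charges cytochrome b5, had 148, 126 and 136 FPKM in control and 124, 106 and 102 FPKM with RCE. These groups did not overlap, yet the change missed the threshold (-0.30, adjusted p = 0.0619) and passed with the block (2.88e-04), with median-of-ratios scaling (0.0485), with GC correction (0.0293) and without RCE replicate 1 (0.0209). The sphingolipid desaturase Degs1 was at -0.11 (adjusted p = 0.148), and was called lower with the block (0.00966) and with median-of-ratios scaling (-0.20, adjusted p = 0.0286) or GC correction (0.0231).

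Transcription of these enzymes is controlled by SREBP factors, which Scap escorts and Insig proteins hold back, and by LXR and carbohydrate-response factors. In a list of 19 such regulators 17 were tested, 5 rose and 2 fell (median 0.01, or -0.07 with median-of-ratios scaling, and 5 higher and 6 lower with the block). All genes gave 17.6% higher and 6.77% lower, or 46.6% and 15.9% with the block. Insig1, itself a target of SREBP, had 11.3, 13.2 and 13.3 FPKM in control and 7.63, 7.87 and 8.24 FPKM with RCE (-0.60, limma adjusted p = 0.00283). Srebf2, the sterol branch factor, fell too (-0.26, adjusted p = 0.0225), while Srebf1, which drives the fatty acid branch, was at 17.3, 15.4 and 14.6 FPKM in control and 14.6, 13.6 and 13.3 FPKM with RCE, with overlap between the groups (-0.17, adjusted p = 0.138, 0.0018 with the block and 0.0205 with GC correction). Those that rose were Mlxip (0.38, adjusted p = 0.00567), the glucose-sensing factor MondoA, the adipogenic receptor Pparg (0.34, 0.00652), Prkaa2 (0.28, 0.00363), a catalytic subunit of AMP-activated kinase, and, close to the threshold, the other such subunit Prkaa1 (0.13, 0.0489) and the E-box factor Usf1 (0.19, 0.0362). Prkaa1 lost its call with median-of-ratios scaling (0.047, adjusted p = 0.505), with quantile normalization (0.114), with a filter at 5 FPKM (0.054), with GC correction (0.028, 0.781, and 0.388 with the block too) and on leaving out any 1 library (0.0791 to 0.163). Usf1 lost its call with median-of-ratios scaling (adjusted p = 0.133), quantile normalization (0.0961) or GC correction (0.187), and on leaving out any 1 library but RCE replicate 1 (0.0806 to 0.131). Srebf2 lost its call without control replicate 3 (0.0646), RCE replicate 2 (0.0898) or RCE replicate 3 (0.085). The list's counts thereby changed to 3 higher under median-of-ratios, quantile or GC scaling and on leaving out any 1 library but RCE replicate 1, and to 1 lower without control replicate 3, RCE replicate 2 or RCE replicate 3, against 4 lower with GC correction.

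Of genes of the sterol branch, which SREBP2 controls, 17 of 21 fell and 0 rose (median -0.31), against 6.77% and 17.6% of all genes. The list was chosen with this direction known and so is no independent evidence of it. Sqle, the squalene epoxidase of cholesterol synthesis, had 34.7, 37.4 and 38.0 FPKM in control and 23.2, 26.0 and 25.2 FPKM with RCE, without overlap (-0.55, limma adjusted p = 0.0024). Idi1 and Nsdhl, enzymes of the same pathway, were at -0.47 (adjusted p = 0.00143) and -0.41 (0.00264). Leaving out control replicate 2 or control replicate 3 left 9 called in each case, and leaving out RCE replicate 2 or RCE replicate 3 left 11.

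**Figure D4:**
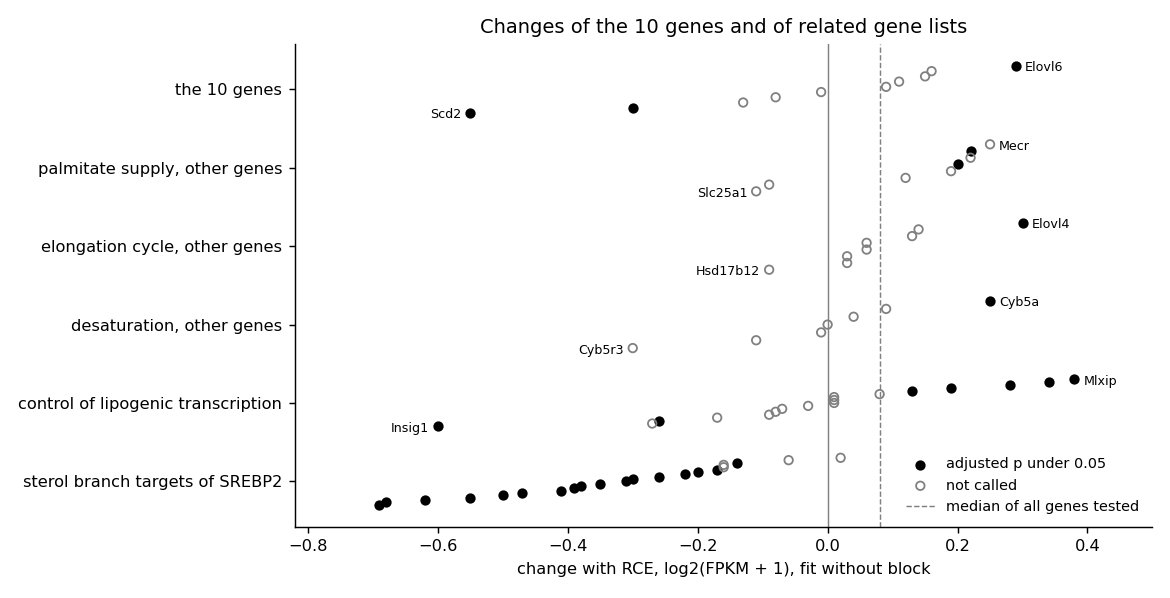
Change with RCE on the log2(FPKM + 1) scale (horizontal axis) of the 10 genes and of the tested members of 5 related lists, each point a gene and filled where called. The 10 genes spread from -0.55 (Scd2) to 0.29 (Elovl6), while 17 of 21 genes of the sterol branch were called lower.

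Several of the 10 genes are also abundant in fat cells, and fewer cells of a type and less RNA per cell cannot be told apart in bulk libraries. Of 10 adipocyte markers 4 were tested. Of these 3 were called higher (Fabp4 at 1.39, Lpl at 0.57 and Pparg at 0.34) and 0 lower, where 17.6% and 6.77% of all genes were. The block added Cebpa (0.18, limma adjusted p = 0.00672), where it called 46.6% of all genes higher. The summed level of the 10 markers was 23.3 to 24.1 FPKM in control and 35.8 to 38.8 FPKM with RCE. Lep, Cfd and Cidec were listed at 0 in all 6 libraries, and Adipoq, Plin1 and Retn were at 0 to 0.026 FPKM, so the markers that define mature fat cells were at or near 0. Macrophage markers summed to 16.5 to 17.5 FPKM in control and 12.1 to 13.5 FPKM with RCE, mostly Lyz2 (-0.43, limma adjusted p = 0.00468). Of the 7 macrophage markers 2 were tested, and 1 was called. Endothelial (3.17 to 3.53 against 2.76 to 3.04 FPKM) and epithelial markers (2.00 to 2.89 against 1.25 to 2.42 FPKM) were low. Of 6 endothelial markers 2 were tested and 1 was called (Emcn, lower). Of 6 epithelial markers 1 was tested and 0 were called, or 1 with the block (Krt18, -0.28, limma adjusted p = 0.00443). Emcn lost its call without control replicate 1 (0.0578), control replicate 3 (0.0837), RCE replicate 2 (0.0934) or RCE replicate 3 (0.088). Hepatocyte markers summed to at most 0.184 FPKM. The part of these markers in the changes of the 10 genes was not tested.

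The genes whose profile over the 6 libraries was nearest to that of a member were found by the root mean square difference of centred log2(FPKM + 1), among 7633 genes that averaged 5 FPKM or more and were named otherwise than by a gene model or clone number. For Scd2 these were Socs5 (0.023), a suppressor of cytokine signalling, Cflar (0.031), which encodes the caspase-8 inhibitor c-FLIP, and Rsbn1 (0.035). Nearest to Acly were Ptgs1 (0.018), the constitutive cyclooxygenase, Rasa2 (0.022) and Atp8b2 (0.026). Elovl5 was closest to Bscl2 (0.008), which encodes the lipid droplet protein seipin, Ddx58 (0.014), the RNA sensor RIG-I, and Top1 (0.014). With 6 libraries in 2 groups this is a description of likeness only.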

How the data were processed

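The 6 libraries were made from total RNA extracted with TRIzol, and the labels' protocols name the TruSeq Stranded mRNA kit. The authors deposited 1 value per gene and library, taken as FPKM from the submitters' processing notes, which list Cuffdiff 2.2.1, Cufflinks, STAR 2.5.4 and the build mm10 but no roles, and from the values. The sources used here do not state the annotation, filters or strand setting. FPKM values divide by length and depth, so they are not counts and no count model was used.

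Genes, transcript length, GC content and shared 50-base stretches came from GENCODE M21 (all 21853 identifiers matched). Depth was the number of fragments at which values of 0.02 to 0.5 FPKM of genes with 1 transcript came out whole within 0.1 of a fragment, which held for 100% of 401 to 429 values per library. Groups were compared across the 10870 genes averaging 1 FPKM or more by limma 3.58.1 in R 4.3.3, with a trend of the variance on level, after taking log2(FPKM + 1), 2-sided, with Benjamini-Hochberg adjustment at 0.05, after a test on simulated data. Single values were compared by exact permutation tests. Groups share replicate numbers 1 to 3. Deviations from the group means of same-numbered libraries correlated at 0.92, 0.62 and 0.68, which by the rule used treats libraries as paired. That pairing rests on the data only, and calls are those of the fit without a block unless another is named. The blocked fit, with 2 residual degrees of freedom, stands beside a result whose call it changes. Replicates 2 and 3 were not told apart (0.72 and 0.77 when crossed).

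The 10 genes, the lists and the tests were chosen with earlier results of these data known, so no list is independent evidence. Named were the 10 genes, up to 4 members of each related list (palmitate supply, elongation, desaturation, control of transcription, sterol branch) with the smallest p, and, for the member with the smallest p in each route, the 3 nearest profiles. An item that this rule would name is not reported here. Srebf1, Srebf2, Usf1, Prkaa1, Scd3, Scd4 and the markers named (fibroblast, adipocyte, macrophage, endothelial) were chosen after their values were seen. Alternatives were 2 other pseudocounts, other filters, scalings and spread estimates, the block, array weights, a GC correction (lowess, span 0.3) and leaving out libraries. Array weights stopped short of their convergence tolerance.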

Additional observations from a re-analysis of the deposited data

How the results depend on the processing

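Scd2 and Elovl6 were called under all 18 alternatives, and 9 of the 10 genes kept their direction under all of them. Fads3 did not (-0.047 to 0.024 when 1 library was left out). Of 180 fits of the 10 genes 8 lost a call, all of Acly, and 20 gained a call. The count of the 10 genes called higher, 1 as reported, was 5 with the replicate block, 4 with array weights, 2 with the replicate block and GC correction, 4 without both replicate 1 libraries and 1 to 2 when 1 library was left out (2 without RCE replicate 1). The count called lower, 2 as reported, was 4 with the block, 4 with array weights, 5 with the block and GC correction, 1 without the filter, 1 with a filter at 5 FPKM, 1 with quantile normalization and 1 to 2 when 1 library was left out.

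Over all genes 1910 were higher and 736 lower. Higher and lower counts were 5060 and 1730 with the block, 5047 and 1731 with array weights, 4364 and 1480 without both replicate 1 libraries, 2745 and 2952 with the block and GC correction, 893 and 1185 with GC correction, 913 and 1082 with median-of-ratios scaling, 785 and 857 with quantile normalization and 867 and 485 with a minimum of 5 FPKM. Leaving out 1 library gave 685 to 2040 higher and 394 to 734 lower, both lowest without RCE replicate 2, and each below the reported counts by over 1.5 times on leaving out either replicate 2 or either replicate 3 library. The causes were not tested. Among the related lists, the count called higher in the palmitate supply list ran from 0 to 6. Among listed genes, 65 of 532 fits lost a call, 35 gained a call and 1 turned sign (Cyb5r2, 0.09 as reported and -0.024 with quantile normalization). The Scd1 share was higher by 5.92 to 8.37 percentage points when 1 library was left out, with no test able to pass 0.05. Counting error was at most 2.75% of a value of the 10 genes on the longest transcript, and would be larger on a shorter one.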
